A study of Mus musculus with 24 samples.

Results

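Gadd45b, its paralogs Gadd45a and Gadd45g, and a set of growth and p53 regulators (Dusp6, Ccnd1, Myc, Cdkn1a, Trp53inp1 and Mdm2) were followed in mouse liver. The genes were chosen by name, and all 16 probe sets that the platform annotation gives to 1 of them alone were used. They are 9 of the 12393 genes on the array, and 9 of 9 were bright enough to be tested. Expression had been measured by the authors in livers of 24 mice, with 1 Affymetrix array per mouse and 2 mice in each of 12 groups. All mice were labelled female and of C57BL/6x129Sv background, and the sources used here give no ages. Human CAR mice carried a transgene for human CAR, the constitutive androstane receptor, driven by the promoter of mouse albumin, a hepatocyte gene, and they lacked mouse CAR (mCAR-/-). Knockout mice lacked mouse CAR and had no transgene. Wild-type mice had mouse CAR alone. Each genotype received, by injection into the abdomen over 3 days, TCPOBOP (3 mg/kg), phenobarbital (100 mg/kg per day), CITCO (30 mg/kg per day) or the vehicle corn oil. TCPOBOP was given once, on the first day, and was followed by corn oil. Livers were collected 6 h after the final injection. The labels describe TCPOBOP as a ligand of mouse CAR, CITCO as a ligand specific for human CAR, and phenobarbital as a drug that sends either receptor into the nucleus.

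CAR, encoded by Nr1i3, is a nuclear receptor of hepatocytes that switches on drug-metabolising genes, and its activation in mice also makes the liver grow. The GADD45 proteins are small acidic stress sensors that bind the kinase MAP3K4, the replication clamp PCNA and cyclin-dependent kinase CDK1, and Gadd45b is known in mouse liver as a gene induced by CAR ligands and after partial hepatectomy. MYC and cyclin D1 push cells from rest into the division cycle. p53 restrains it, and p53 switches on genes such as Cdkn1a, Mdm2 and Trp53inp1.

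The promoters of the 3 Gadd45 genes are shown because Gadd45b was called changed in these livers and its paralogs were not. Each runs from 250 bases before to 50 bases after the annotated start, 5′ to 3′ on the strand of the gene, from RefSeq on GRCm38.p6. Capitals mark matches on either strand to CACGTG (an E-box, the kind of site MYC binds), CCAAT and TATAAA, none of which overlap here. Gadd45b lies on the plus strand at chr10:80929841-80930140, Gadd45a on the minus strand at chr6:67037358-67037657, and Gadd45g on the plus strand at chr13:51846425-51846724.
Gadd45b: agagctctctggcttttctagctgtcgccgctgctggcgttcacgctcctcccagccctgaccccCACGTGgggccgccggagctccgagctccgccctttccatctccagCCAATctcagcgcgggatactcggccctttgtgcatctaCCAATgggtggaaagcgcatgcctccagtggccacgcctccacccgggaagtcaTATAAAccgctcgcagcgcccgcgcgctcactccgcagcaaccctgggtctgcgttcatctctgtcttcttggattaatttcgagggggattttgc
Gadd45a: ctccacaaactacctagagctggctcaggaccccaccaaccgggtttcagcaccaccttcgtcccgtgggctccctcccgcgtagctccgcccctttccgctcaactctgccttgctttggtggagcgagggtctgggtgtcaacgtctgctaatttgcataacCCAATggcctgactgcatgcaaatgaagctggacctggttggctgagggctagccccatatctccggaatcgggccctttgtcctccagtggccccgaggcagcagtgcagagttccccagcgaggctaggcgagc
Gadd45g: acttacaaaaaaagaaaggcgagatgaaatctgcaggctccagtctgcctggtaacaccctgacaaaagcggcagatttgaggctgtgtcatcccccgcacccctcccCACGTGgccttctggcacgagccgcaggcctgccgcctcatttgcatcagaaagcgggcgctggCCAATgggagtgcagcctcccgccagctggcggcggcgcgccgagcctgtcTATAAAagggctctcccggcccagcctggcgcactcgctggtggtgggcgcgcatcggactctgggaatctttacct

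The Gadd45b window held an E-box that begins at -185 from the start, CCAAT at -139 and -100, and TATAAA at -46. Gadd45g held the same 3 kinds of match, at -142, -78 and -27. Gadd45a held CCAAT at -86, with no E-box or TATAAA match, and it alone of the 3 had a match to the p53 half-site, at -40. Among 32817 promoter windows of the same length, 7.15% held CACGTG, 37.4% CCAAT, 13.6% TATAAA and 8.36% a p53 half-site. AGGTCA, the nuclear receptor half-site (16.3% of windows), and TGACGTCA, a cyclic AMP response element (1.79%), had no match in the windows of the 6 genes with an entry, which also included Cdkn1a, Mdm2 and Dusp6. Cdkn1a has 2 annotated windows; the upstream one had p53 half-sites at -73 and -51 and the other had no match. Mdm2 had 1 p53 half-site, at -186. Mdm2 also had CCAAT at -72, and Dusp6 had CCAAT at -46. These letter matches are a description of the windows and no measurement of binding.

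Values are log2 expression as deposited, from 2.03 to 14.1, with array medians of 5.41 to 5.51. Changes are log2 differences with the standard error (SE) of a limma fit to all 24 arrays. A gene was called changed at a Benjamini-Hochberg adjusted p under 0.05 over 9167 tested genes. Probe sets above the 40th percentile of their array (4.93 to 5.08, here named the dim limit) on at least 2 arrays were tested. The p-values rest on the spread between mice within groups, pooled over the 12 groups and moderated by limma across genes. No label ties the 2 mice of a group to separate litters or days, so whether this spread covers litters or days is not known. Groups said not to overlap are described only, since each has 2 mice and the share of all genes that separate was not counted. Nr1i3 checked the genotypes, with 5.03 to 5.60 on the 16 arrays of human CAR and knockout mice and 6.84 to 8.0 on the 8 wild-type arrays; whether its probes lie in the deleted part was not known. The RNA came from liver tissue, so fewer cells of a type and less RNA per cell cannot be told apart.

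A pair of arrays stood apart from the other 22, the human CAR phenobarbital array of replicate 1 and the knockout phenobarbital array of replicate 2. The median of their correlations with each other array was 0.970 and 0.980, compared with 0.981 to 0.991 for the rest. They also carried the highest values of Gadd45a, Gadd45g, Cdkn1a and Trp53inp1 among the 24 arrays. The 3 of 5 neutrophil markers on the array averaged 8.44 on the human CAR array and 5.46 on the knockout array, against 5.36 to 6.59 on the other 22. The 6 of 7 Kupffer cell markers averaged 7.19 and 6.92 on those arrays, against 7.23 to 8.42 elsewhere. Endothelial markers averaged 6.07 and 6.19, against 6.25 to 6.74. Stellate cell markers were lower on the human CAR array (6.03, against 6.09 to 6.60 on the other 22), while T cell markers were higher on the knockout array (5.58, against 5.15 to 5.55). Cholangiocyte markers were slightly higher on the human CAR array (5.09, against 4.63 to 5.04, where 5.04 was the other mouse of its group). Only 1 of those 4 markers exceeded the 40th percentile of every array. Hepatocyte markers averaged 12.2 and 12.5, against 11.8 to 12.4. The part of these differences in the results was not tested, and the main phenobarbital results of human CAR and knockout livers are also given without them. Without them, each of their groups has 1 mouse, which is assumed to vary like the others. For the genes of the 9 other than Mdm2, the residual spread is then smaller, since it no longer holds the gap between the mice of these groups. For Mdm2 those gaps were 0.18 in human CAR and 0.08 in knockout mice, and its residual spread is not smaller.

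Gadd45b rose in wild-type livers, 4.95-fold with TCPOBOP and 4.47-fold with phenobarbital, while with CITCO it was 1.04-fold corn oil. In human CAR livers it rose 3.05-fold with phenobarbital. It was not called changed by any ligand in knockout livers, and the TCPOBOP effect was smaller there, and in human CAR livers, by the test of the difference. Cyp2b10, a drug-metabolising gene kept as a check, read 7.36 and 8.98 with CITCO and 4.66 and 5.22 with corn oil in wild-type livers. In knockout livers Cyp2b10 read 4.45 and 4.82 with CITCO and 5.42 and 4.81 with corn oil.

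Gadd45b read 5.76 and 5.61 with TCPOBOP in human CAR livers, where it had 7.67 and 6.79 with phenobarbital, 6.08 and 6.17 with CITCO, and 5.68 and 5.57 with corn oil. In knockout livers it read 5.38 and 5.56 with TCPOBOP, 5.69 and 6.88 with phenobarbital, 5.54 and 5.35 with CITCO, and 5.82 and 5.73 with corn oil. In wild-type livers it read 8.09 and 7.92 with TCPOBOP, 7.82 and 7.90 with phenobarbital, 5.80 and 5.72 with CITCO, and 5.60 and 5.80 with corn oil. The 4 wild-type arrays of TCPOBOP and phenobarbital were the highest of all 24. Every human CAR array of phenobarbital or CITCO lay above every human CAR array of corn oil, and of the knockout phenobarbital mice only the one that stood apart lay above its corn oil mice.

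**Figure D1:**
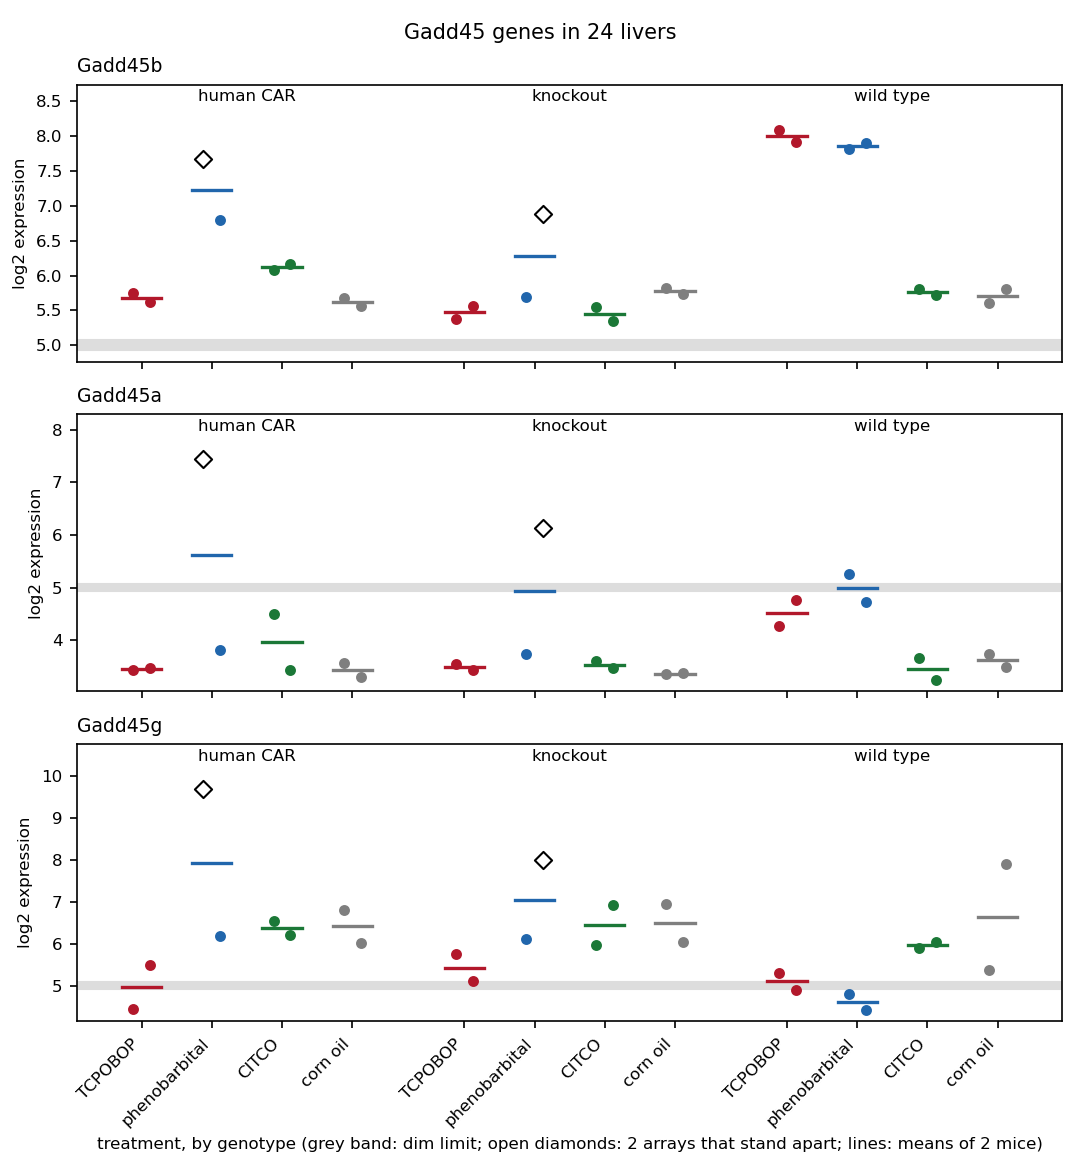
Log2 expression (y axis) of Gadd45b, Gadd45a and Gadd45g in the 24 livers, by genotype and treatment (x axis); points are single mice, lines are means of 2 mice, open diamonds are the arrays that stood apart and the grey band is the dim limit of 4.93 to 5.08. Gadd45b was highest in wild-type livers given TCPOBOP or phenobarbital (7.82 to 8.09), while the highest Gadd45a and Gadd45g values were those of the open diamonds.

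The order of the group means of Gadd45b was wild-type TCPOBOP (8.01), wild-type phenobarbital (7.86), human CAR phenobarbital (7.23), knockout phenobarbital (6.29) and human CAR CITCO (6.12). The other groups followed between 5.77 and 5.45. Neighbours in that order did not overlap at wild-type TCPOBOP against wild-type phenobarbital, at wild-type against human CAR phenobarbital, and at human CAR CITCO against knockout corn oil. The human CAR and knockout phenobarbital groups overlapped, and so did those of knockout phenobarbital and human CAR CITCO. Among the lower groups, adjacent ones overlapped in the run of knockout corn oil, wild-type CITCO, wild-type corn oil, human CAR TCPOBOP and human CAR corn oil. Knockout TCPOBOP (5.47) and knockout CITCO (5.45) lay below all of these and overlapped each other.

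By limma, the change of Gadd45b with TCPOBOP in wild-type livers was 2.31 (SE 0.28, adjusted p = 6.34e-05, 95% interval 1.72 to 2.90). With phenobarbital it was 2.16 (SE 0.28, adjusted p = 0.000449). With CITCO it was 0.06 (adjusted p = 0.981). The first 2 calls held whichever single array was left out. In human CAR livers the change with phenobarbital was 1.61 (SE 0.28, adjusted p = 0.0261), and the call was lost without corn oil replicate 1 (1.66, adjusted p = 0.192) or phenobarbital replicate 1 (1.17, adjusted p = 0.289). With both arrays that stood apart left out, the change was 1.17 (SE 0.14) and called (adjusted p = 0.00263). The change with CITCO was 0.50 (SE 0.28, adjusted p = 0.743) and with TCPOBOP 0.06 (adjusted p = 0.978). In knockout livers the changes were -0.30 with TCPOBOP, 0.51 with phenobarbital (SE 0.28, adjusted p = 0.294; -0.08 without both arrays) and -0.33 with CITCO.

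The TCPOBOP effect on Gadd45b was lower in knockout than in wild-type livers by a difference of -2.61 (SE 0.39, adjusted p = 0.00128) and lower in human CAR than in wild-type livers by -2.24 (SE 0.39, adjusted p = 0.00589). Between human CAR and knockout it differed by 0.37. The phenobarbital effect differed by -1.65 between knockout and wild type (SE 0.39, adjusted p = 0.142), by -0.55 between human CAR and wild type (adjusted p = 0.654) and by 1.10 between human CAR and knockout (adjusted p = 0.455). Without the 2 arrays that stood apart, the knockout phenobarbital effect was lower than the wild-type one by -2.24 (adjusted p = 1.23e-05), and the human CAR effect was higher than the knockout one by 1.25 (adjusted p = 0.0347) and lower than the wild-type one by -0.99 (adjusted p = 0.0434). The CITCO effect on Gadd45b differed by 0.83 between human CAR and knockout livers, with an adjusted p of 0.733 over all arrays and 0.0495 without those 2. All comparisons within a genotype share its corn oil mice.

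Gadd45b was read by 3 probe sets. The brightest of them is the one tested. A second probe set (middle panel of the plot of Gadd45b probe sets) gave the same order of these groups, with 7.04 and 7.12 for TCPOBOP, 6.86 and 6.85 for phenobarbital and 4.84 and 5.18 for corn oil in wild-type livers, and it exceeded the dim limit on 9 arrays. It had changes of 2.07 and 1.85 with these ligands. The last one stayed between 5.06 and 5.71 on all 24 arrays and had changes of 0.02 with TCPOBOP and 0.18 with phenobarbital in wild type. The mean of the 3 probe sets therefore changed less, by 1.47 with TCPOBOP and 1.39 with phenobarbital, and these calls held.

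**Figure D2:**
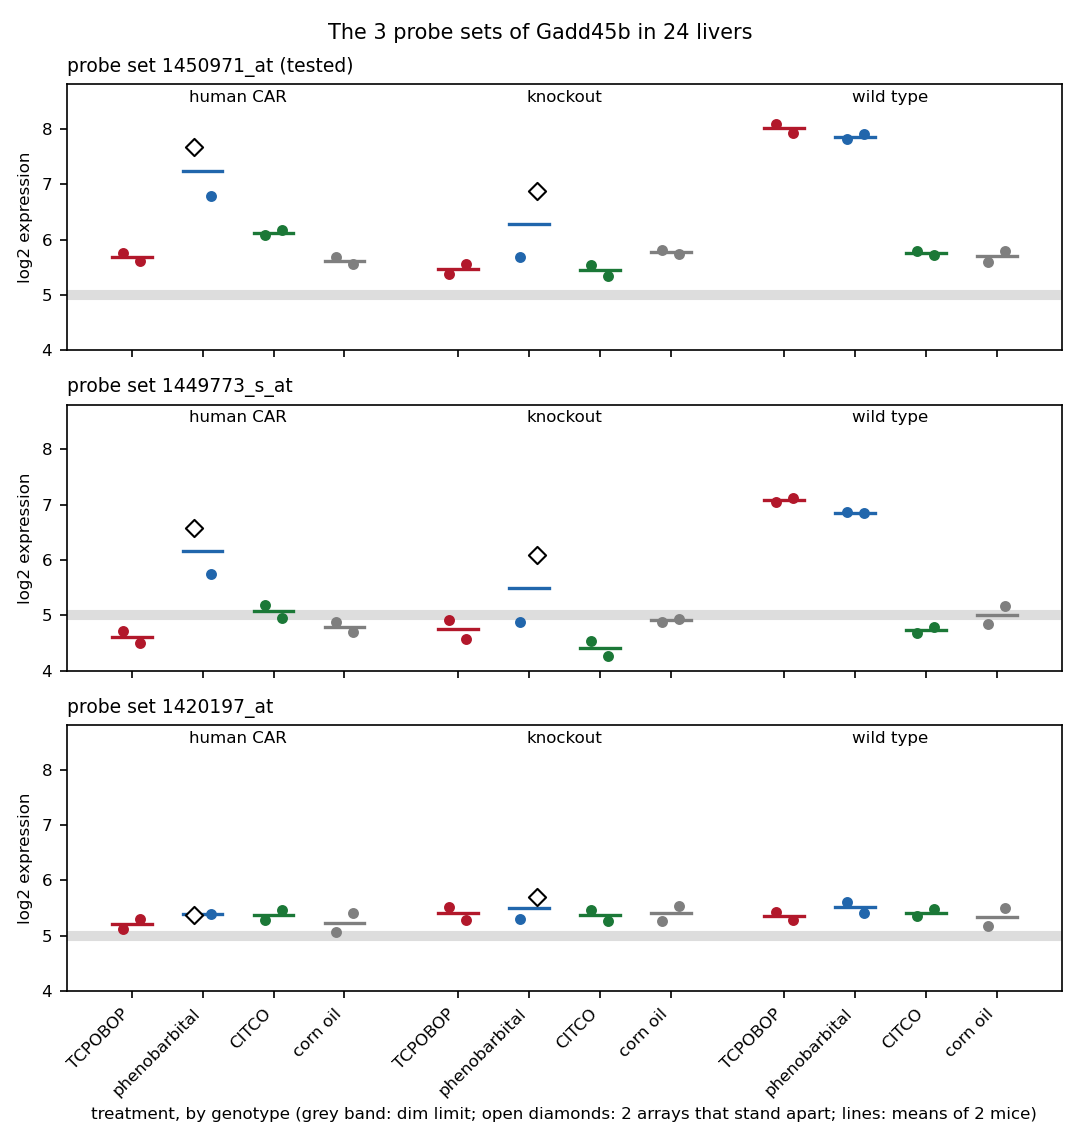
Log2 expression (y axis) of the 3 probe sets annotated to Gadd45b in the 24 livers, by genotype and treatment (x axis), with points for mice, lines for means of 2 mice, open diamonds for the arrays that stood apart and a grey band for the dim limit. The tested probe set (top) and the middle one were highest in the same wild-type groups, whereas the bottom one covered a range of 0.646 over all arrays.

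Gadd45a, the paralog known as a p53 target, was not called changed in any comparison, and it exceeded the dim limit on only 3 of 24 arrays. It read 3.43 and 3.48 with TCPOBOP in human CAR livers, where it had 7.43 and 3.81 with phenobarbital, 4.50 and 3.43 with CITCO, and 3.57 and 3.30 with corn oil. In knockout livers it read 3.54 and 3.43 with TCPOBOP, 3.75 and 6.14 with phenobarbital, 3.60 and 3.47 with CITCO, and 3.36 and 3.38 with corn oil. In wild-type livers it read 4.28 and 4.77 with TCPOBOP, 5.26 and 4.73 with phenobarbital, 3.67 and 3.24 with CITCO, and 3.75 and 3.50 with corn oil. The 3 arrays above the limit were all of phenobarbital mice, 1 in each genotype. The 4 wild-type mice given TCPOBOP or phenobarbital lay above both corn oil mice, but both corn oil values were below the limit.

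The changes of Gadd45a in wild type were 0.90 with TCPOBOP and 1.37 with phenobarbital (SE 0.80, adjusted p = 0.478). That SE is shared by all 12 groups, so it holds the gaps of 3.62 and 2.39 between mice of other genotypes. With only the genotypes compared, Gadd45a was called with phenobarbital in wild type, though it entered that fit through the filter over all 24 arrays. Both TCPOBOP mice and 1 phenobarbital mouse were below the dim limit too, so the sizes of these changes are uncertain. Leaving out the 2 arrays that stood apart keeps these values and leaves Gadd45a above the limit on 1 array. It would then fail the filter of 2 arrays, so limma's calls of it in that setting are not read as results. With phenobarbital the change was 2.19 in human CAR livers (adjusted p = 0.148) and 1.58 in knockout livers (adjusted p = 0.268), and these became 0.38 in each genotype without those arrays. The 2 human CAR phenobarbital mice differed by 3.62, a gap that 0.0764% of tested genes exceeded. Those of the knockout differed by 2.39, exceeded by 0.196%.

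Gadd45g, a paralog known to respond to cytokines, was also not called in any comparison. It read 4.45 and 5.49 with TCPOBOP in human CAR livers, where it had 9.69 and 6.19 with phenobarbital, 6.55 and 6.21 with CITCO, and 6.81 and 6.02 with corn oil. In knockout livers it read 5.77 and 5.10 with TCPOBOP, 6.11 and 8.0 with phenobarbital, 5.98 and 6.92 with CITCO, and 6.95 and 6.05 with corn oil. In wild-type livers it read 5.30 and 4.90 with TCPOBOP, 4.80 and 4.42 with phenobarbital, 5.89 and 6.05 with CITCO, and 5.36 and 7.90 with corn oil. TCPOBOP mice lay below corn oil mice of their genotype without overlap in all 3 genotypes, and so did wild-type phenobarbital mice, while the 2 wild-type corn oil mice were 2.54 apart, a gap that 0.0327% of genes exceeded. Both wild-type phenobarbital values and 1 TCPOBOP value in each of human CAR and wild-type livers were below the dim limit.

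With TCPOBOP the changes of Gadd45g were -1.45 in human CAR, -1.07 in knockout and -1.53 in wild-type livers (SE 0.91 each), with adjusted p-values of 0.784, 0.654 and 0.364. With single arrays left out they ran from -1.97 to -0.93, from -1.51 to -0.62 and, in wild type, from -2.80 without corn oil replicate 1 to -0.26 without corn oil replicate 2. With phenobarbital the change was -2.02 in wild type (limma's unadjusted p-value across all genes 0.0396, adjusted p = 0.333), the opposite sign to Gadd45b in the same livers, and it was -3.29 and -0.76 without those 2 corn oil arrays in turn. In human CAR livers it was 1.52 (adjusted p = 0.336), and -0.23 without the array of replicate 1. The knockout change was 0.55, and -0.39 without the array of replicate 2. The phenobarbital effect on Gadd45g differed by 3.54 between human CAR and wild type (SE 1.28, adjusted p = 0.334), and by 1.79 without the 2 arrays that stood apart. With single arrays left out it ran from 1.79 to 5.29.

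Dusp6, the phosphatase that switches off the growth-signalling kinase ERK, rose in wild-type livers 3.69-fold with phenobarbital and 2.10-fold with TCPOBOP. It was not called changed by any ligand in human CAR or knockout livers. It read 5.68 and 5.76 with TCPOBOP in human CAR livers, where it had 6.13 and 6.79 with phenobarbital, 6.03 and 5.78 with CITCO, and 6.23 and 5.91 with corn oil. In knockout livers it read 6.33 and 6.03 with TCPOBOP, 5.74 and 6.01 with phenobarbital, 5.61 and 6.29 with CITCO, and 5.70 and 5.70 with corn oil. In wild-type livers it read 6.34 and 6.86 with TCPOBOP, 7.44 and 7.39 with phenobarbital, 5.75 and 5.54 with CITCO, and 5.32 and 5.73 with corn oil. The wild-type phenobarbital mice were the highest of all 24, and the wild-type TCPOBOP mice came next with 1 human CAR phenobarbital mouse (6.79) between them.

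The change of Dusp6 in wild type was 1.88 with phenobarbital (SE 0.24, adjusted p = 0.000449), called whichever array was left out. With TCPOBOP it was 1.07 (SE 0.24, adjusted p = 0.0123), and the call was lost without corn oil replicate 1 (0.87, adjusted p = 0.141) or TCPOBOP replicate 2 (0.81, adjusted p = 0.155). The 2 ligands differed by -0.81, TCPOBOP minus phenobarbital (SE 0.24, adjusted p = 0.14). The TCPOBOP effect on Dusp6 was lower in human CAR than in wild-type livers by -1.42 (SE 0.34, adjusted p = 0.0411), a call lost for 6 of the 8 arrays left out in turn (wild-type corn oil replicate 1, wild-type TCPOBOP replicate 2 and each human CAR array), with adjusted p-values up to 0.214. Between knockout and wild type it differed by -0.59 (adjusted p = 0.562). The phenobarbital effect differed by -1.49 between human CAR and wild type (adjusted p = 0.102, and -1.16 without the 2 arrays that stood apart) and by -1.70 between knockout and wild type (adjusted p = 0.0536). The difference between knockout and wild type was called without the 2 arrays that stood apart (-1.84, adjusted p = 0.039) and under several other settings.

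**Figure D3:**
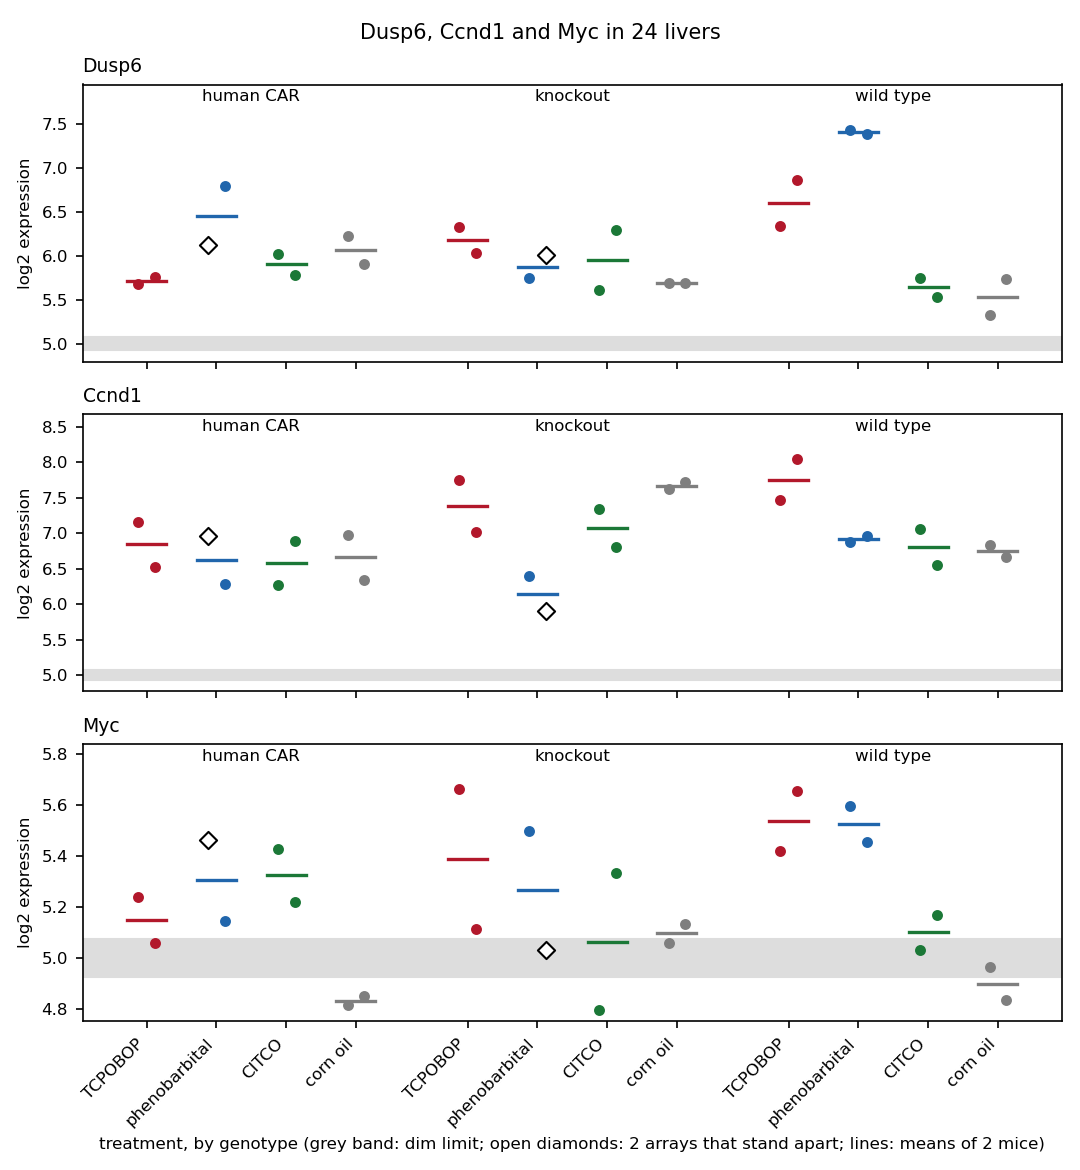
Log2 expression (y axis) of Dusp6, Ccnd1 and Myc in the 24 livers, by genotype and treatment (x axis), with points for mice, lines for means of 2 mice, open diamonds for the arrays that stood apart and a grey band for the dim limit. Dusp6 was highest in wild-type phenobarbital livers (7.39 and 7.44), Ccnd1 had its lowest group mean in knockout phenobarbital livers (6.15), and Myc spanned 4.80 to 5.66.

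Ccnd1, which encodes cyclin D1, was called in 1 comparison: with phenobarbital in knockout livers it fell, to 2.88-fold below corn oil. It read 7.16 and 6.52 with TCPOBOP in human CAR livers, where it had 6.96 and 6.29 with phenobarbital, 6.27 and 6.89 with CITCO, and 6.98 and 6.34 with corn oil. In knockout livers it read 7.75 and 7.02 with TCPOBOP, 6.39 and 5.90 with phenobarbital, 7.35 and 6.81 with CITCO, and 7.62 and 7.73 with corn oil. In wild-type livers it read 7.47 and 8.04 with TCPOBOP, 6.88 and 6.96 with phenobarbital, 7.06 and 6.55 with CITCO, and 6.83 and 6.66 with corn oil. Corn oil mice of the knockout lay above those of either other genotype, and wild-type TCPOBOP mice above wild-type corn oil mice, without overlap.

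The fall of Ccnd1 with phenobarbital in knockout livers was -1.53 (SE 0.33, adjusted p = 0.0468). It was -1.28 and not called without the phenobarbital array of replicate 2 (adjusted p = 0.335), and the call was also lost without either corn oil array. In the same comparison 2 of 6 Kupffer cell markers fell, against 0.731% of all genes called. They were Cd5l by -1.67 and Marco by -1.57, and the median of the 6 was -1.18. Cd5l was at -1.12 and Marco at -1.46, neither called, without the 2 arrays that stood apart. On corn oil, Ccnd1 differed by 0.93 between knockout and wild type (SE 0.33, adjusted p = 0.567) and by -1.01 between human CAR and knockout (adjusted p = 0.468). The 6 Kupffer cell markers averaged 7.76 and 7.37 in human CAR and 8.42 and 8.26 in knockout corn oil livers, against 8.18 and 7.70 in wild type. Marco was called there, at 1.73 between knockout and wild type (adjusted p = 0.00327) and -1.34 between human CAR and knockout (adjusted p = 0.0368). With TCPOBOP in knockout livers Marco was called lower too, by -1.47 (adjusted p = 0.0449), where Ccnd1 changed by -0.29. In wild-type phenobarbital livers the 6 markers averaged 7.54 and 7.43, and Ccnd1 changed there by 0.17. The part of these cells in the Ccnd1 values was not tested. With TCPOBOP in wild type its change was 1.01 (SE 0.33, adjusted p = 0.0842), and under the settings tried the adjusted p ran from 0.0111 with only the genotypes compared to 0.369 without TCPOBOP replicate 2. The other 2 Ccnd1 probe sets changed in the same direction in wild type with TCPOBOP, by 0.58 and 0.73, and in knockout with phenobarbital, by -0.57 and -1.24.

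Myc had small changes and no call. It read 5.24 and 5.06 with TCPOBOP in human CAR livers, where it had 5.46 and 5.15 with phenobarbital, 5.43 and 5.22 with CITCO, and 4.82 and 4.85 with corn oil. In knockout livers it read 5.66 and 5.11 with TCPOBOP, 5.50 and 5.03 with phenobarbital, 4.80 and 5.33 with CITCO, and 5.06 and 5.14 with corn oil. In wild-type livers it read 5.42 and 5.66 with TCPOBOP, 5.60 and 5.45 with phenobarbital, 5.03 and 5.17 with CITCO, and 4.96 and 4.84 with corn oil. Every ligand group of human CAR and wild-type mice lay above the corn oil mice of its genotype without overlap, which was not so in the knockout. The ligand groups of a genotype share its 2 corn oil mice, and in human CAR and wild type these all lay below the dim limit. How many genes separate in this way was not counted.

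In wild type the change of Myc was 0.64 with TCPOBOP (SE 0.20, adjusted p = 0.0681, and 0.0321 without the 2 arrays that stood apart) and 0.63 with phenobarbital (SE 0.20, adjusted p = 0.153). In human CAR livers it was 0.32 with TCPOBOP, 0.47 with phenobarbital (0.31 without the 2 arrays that stood apart) and 0.49 with CITCO, with adjusted p-values of 0.195 for phenobarbital and 0.574 for CITCO. The knockout changes lay between -0.03 and 0.29, but that with phenobarbital, 0.17, was 0.40 without the array that stood apart. The Myc probe set was near the dim limit, which it exceeded on 18 arrays and on neither wild-type corn oil array, and this limits the precision of its changes.

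Cdkn1a, Trp53inp1 and Mdm2 were not called in any comparison. Cdkn1a, which encodes the kinase inhibitor p21, read 8.39 and 6.58 in human CAR and 6.52 and 8.63 in knockout livers with phenobarbital. The 22 arrays other than those that stood apart lay between 6.26 and 7.0, with a median of 6.55. The phenobarbital change was 1.00 in human CAR (SE 0.51, adjusted p = 0.265) and 0.83 in knockout livers, and -0.23 in wild type. Without the 2 arrays that stood apart the changes were 0.10 in human CAR and -0.23 in knockout livers. The difference of the phenobarbital effect between knockout and wild type was 1.05 over all arrays and -0.000631 without the knockout array of replicate 2. The second Cdkn1a probe set gave the same pattern, with 7.95 and 6.00 in human CAR and 5.44 and 8.33 in knockout phenobarbital livers.

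Trp53inp1, a stress-induced partner of p53, read 8.67 and 7.80 in human CAR and 6.60 and 9.31 in knockout livers with phenobarbital. The corn oil mice read 7.74 and 7.27 in human CAR and 7.12 and 6.88 in knockout livers. In wild type it read 6.23 and 6.73 with phenobarbital and 6.71 and 7.48 with corn oil. The phenobarbital changes were 0.73 in human CAR, 0.95 in knockout and -0.61 in wild-type livers (SE 0.56 each). Leaving out the 2 arrays that stood apart gave 0.30 in human CAR and -0.41 in knockout livers. The 2 knockout phenobarbital mice differed by 2.71, a gap that 0.12% of genes exceeded. Its other probe set read 6.92 and 6.21 in human CAR and 5.88 and 7.22 in knockout phenobarbital livers.

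Mdm2, the ligase that marks p53 for destruction, was the steadiest member, between 6.40 and 7.15 on all 24 arrays. Its 9 ligand changes ran from -0.29 (TCPOBOP in knockout, adjusted p = 0.373) to 0.28 (phenobarbital in human CAR, adjusted p = 0.183), each with an SE of 0.11. That last change was 0.37 without the 2 arrays that stood apart. Its other probe set covered 5.87 to 6.40. On the 2 arrays that stood apart Mdm2 read 6.97 and 6.94, within the range of the rest, while Cdkn1a and Trp53inp1 were at their highest.

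**Figure D4:**
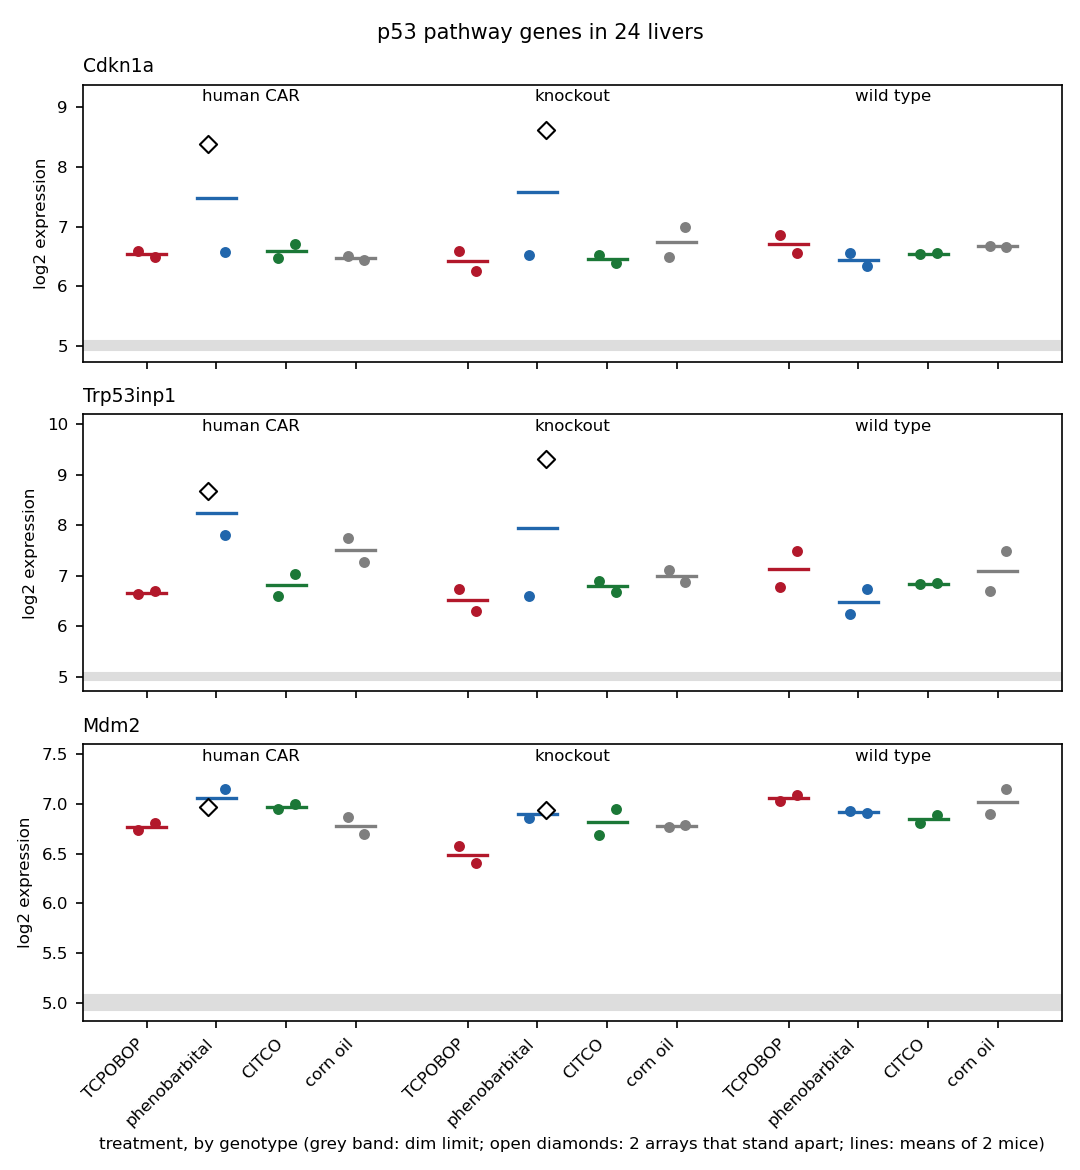
Log2 expression (y axis) of Cdkn1a, Trp53inp1 and Mdm2 in the 24 livers, by genotype and treatment (x axis), with points for mice, lines for means of 2 mice, open diamonds for the arrays that stood apart and a grey band for the dim limit. The open diamonds were the highest values of Cdkn1a (8.39 and 8.63) and Trp53inp1 (8.67 and 9.31), but lay within the other arrays for Mdm2.

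Set against all tested genes, TCPOBOP in wild type called 2 of the 9 genes (Gadd45b and Dusp6), where 6.14% of all genes were called, and 4 of 9 had an unadjusted p under 0.05, against 20.1% of all genes. The median change of the 9 was 0.64, against 0.01 for all genes, and 8 were positive. Phenobarbital in wild type called the same 2 genes, against 1.47% of all genes, with a median of 0.17 for the 9 and -0.0033 for all. Phenobarbital called 1 of 9 in human CAR livers (Gadd45b, against 0.665% of all genes) and 1 of 9 in knockout livers (Ccnd1, against 0.731%). The medians of the 9 were 0.73 and 0.51, against -0.01 and 0.03 for all genes. Without the 2 arrays that stood apart they were 0.31 and -0.08.

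**Figure D5:**
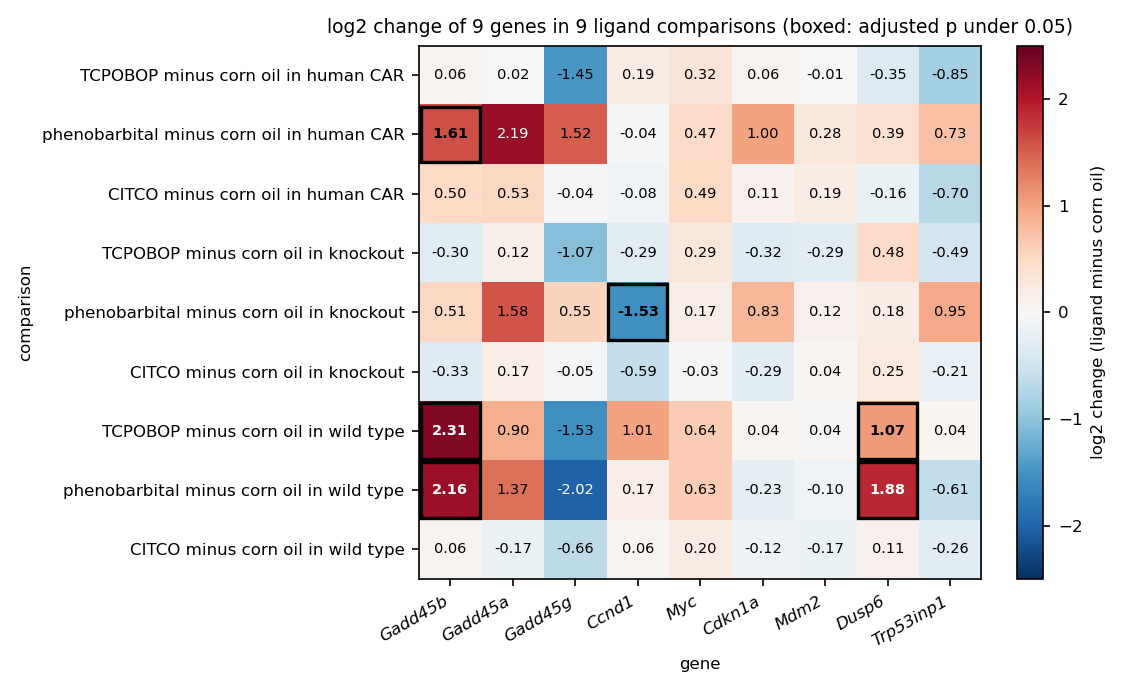
Log2 change (colour and printed value) of the 9 genes (x axis) in the 9 comparisons of a ligand with corn oil (y axis); boxes mark an adjusted p under 0.05. The 6 boxes are Gadd45b with TCPOBOP and phenobarbital in wild type and phenobarbital in human CAR livers, Dusp6 with TCPOBOP and phenobarbital in wild type, and Ccnd1 with phenobarbital in knockout livers.

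The other ligand comparisons called 0 of the 9 genes in limma. These were TCPOBOP in human CAR livers (0% of all genes called), TCPOBOP in knockout (0.0764%), and CITCO in human CAR (0.0873%), knockout (0.0327%) and wild-type livers (0.0327%). In that order 0, 1, 1, 0 and 0 of the 9 had an unadjusted p under 0.05, against 6.65%, 11.4%, 7.49%, 9.40% and 7.28% of all genes. The genotypes on corn oil also gave 0 calls among the 9. The shares of all genes called were 0.229% for knockout against wild type, 0.0545% for human CAR against wild type and 0.12% for human CAR against knockout, with 2, 2 and 1 of the 9 at an unadjusted p under 0.05, against 6.57%, 7.73% and 6.46% of all genes.

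For differences of effects, the TCPOBOP effect was called for 1 of 9 between knockout and wild type (Gadd45b, against 1.95% of all genes) and for 2 of 9 between human CAR and wild type (Gadd45b and Dusp6, against 1.87%). The remaining differences, and TCPOBOP against phenobarbital in wild type, called 0 of the 9 in limma. For phenobarbital the shares of all genes were 0.153% between knockout and wild type, 0.164% between human CAR and wild type and 0.0109% between human CAR and knockout, with 3, 3 and 2 of the 9 at an unadjusted p under 0.05, against 9.14%, 10.4% and 7.90% of all genes. For CITCO the shares called were 0.0218%, 0% and 0.0327%, with 0, 1 and 0 of the 9 at such a p, against 5.64%, 9.41% and 6.79% of all genes. For TCPOBOP between human CAR and knockout 0% were called and 1 of 9 had such a p, against 5.03%, and for the 2 ligands in wild type 1.28% were called and 2 of 9 had such a p, against 10.8%.

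Other genes of these pathways were described by lists chosen from textbook roles. Their counts are to be read against 6.14% of all tested genes called with TCPOBOP (306 higher and 257 lower of 9167) and 1.47% with phenobarbital in wild type. Of 19 tested p53 targets, 0 were called in limma with TCPOBOP or phenobarbital in wild type, with medians of -0.06 and -0.07. In human CAR livers with phenobarbital 1 of 19 was higher, the nuclease gene Aen (0.56, SE 0.11, adjusted p = 0.0272, and 0.127 without the 2 arrays that stood apart), against 0.665% of all genes, and in knockout livers 0 were called, with a median of 0.16. On the arrays that stood apart the 22 measured genes of the p53 target list, tested or not, averaged 6.21 and 6.12, against 5.88 to 6.09 on the others. The 9 tested genes of p53 and its regulators are a list apart from the 9 genes above. Of these Atr, a DNA damage kinase, was higher by 1.88 with TCPOBOP in wild type (SE 0.17, limma's adjusted p = 2.86e-06). It exceeded the dim limit on the 2 arrays of that group alone, and passed the filter only through them. Its p does not allow for that, and the size of its change is uncertain. The other 8 were not called.

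Of 8 tested genes of ERK feedback and response, 1 was called with TCPOBOP in wild type, against 6.14% of all genes, the AP-1 gene Fosl2 (0.53, SE 0.15, adjusted p = 0.0443), and 0 with phenobarbital. The 15 genes of the list on the array, tested or not, averaged 6.54 and 6.16 on the arrays that stood apart, against 5.56 to 5.92 on the others. Of 12 tested genes on a list of G1 cyclins, kinases and inhibitors, 4 rose and 0 fell with TCPOBOP in wild type. This stands against 6.14% of all genes called, and the median of the 12 was 0.12. The 4 were Ccna2 (1.40, SE 0.18, adjusted p = 0.000131), which encodes cyclin A2, the inhibitors Cdkn2c (0.89) and Cdkn2d (0.68), and the transcription factor E2f1 (0.40). Ccna2 and E2f1 are on the list but are not G1 cyclins, kinases or inhibitors themselves. Neither corn oil array of Cdkn2d exceeded the dim limit. With phenobarbital in wild type 0 of 12 were called, with a median of 0.13. Ccna2 was higher with TCPOBOP than with phenobarbital by 1.02 (SE 0.18, adjusted p = 0.00638).

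Of the 12 genes of the MYC network, 0 were called in limma with TCPOBOP or phenobarbital in wild type, with medians of -0.02 and -0.03. Of 16 MYC targets in growth, 2 rose and 1 fell with TCPOBOP, against 6.14% of all genes called, with a median of 0.09. Srm, the spermidine synthase gene, rose by 0.91 (SE 0.16, adjusted p = 0.00256) and the nucleoside diphosphate kinase gene Nme1 by 0.51. Ldha, which encodes a lactate dehydrogenase subunit, fell by -1.20 with TCPOBOP (SE 0.17, adjusted p = 0.000339) and by -0.91 with phenobarbital (adjusted p = 0.0134).

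Among 10 tested partners of GADD45 proteins, 2 rose with TCPOBOP in wild type, against 6.14% of all genes called. They were Cdk1 by 1.83 (SE 0.15, adjusted p = 5.81e-07) and Pcna by 1.04 (SE 0.11, adjusted p = 1.81e-05), and neither wild-type corn oil array of Cdk1 exceeded the dim limit. With phenobarbital Cdk1 rose by 0.70 (adjusted p = 0.0232), less than with TCPOBOP by a difference of 1.13 (adjusted p = 0.000299), and the retinoid X receptor gene Rxra fell by -0.86 (adjusted p = 0.00583). Gadd45gip1, whose product binds GADD45 proteins, fell with phenobarbital by -0.85 in human CAR (adjusted p = 0.0465) and by -0.98 in knockout livers (adjusted p = 0.0232), and was not called in wild type. It was -0.83 in human CAR (adjusted p = 0.249) and -0.96 in knockout livers (adjusted p = 0.145) without the 2 arrays that stood apart. The median of the 10 was -0.16 with TCPOBOP and -0.13 with phenobarbital in wild type.

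The tested genes outside the 9 whose 12 group means correlated best with those of Gadd45b were Peg3 (Pearson r 0.947, Spearman rho 0.706), Cyp26a1 (0.936 and 0.832), Mad1l1 (0.933 and 0.804), Ginm1 (0.930 and 0.804), Tex10 (0.927 and 0.825) and Ccn4 (0.926 and 0.902). These are descriptions over 12 points that share arrays and corn oil mice. The genes were picked for likeness to Gadd45b, which was highest in wild-type TCPOBOP and phenobarbital livers. Their rises in those groups follow largely from that choice, and the p-values below do not allow for it. Without the 2 arrays that stood apart, r was 0.810 for Peg3, 0.614 for Tex10 and between 0.827 and 0.951 for the rest. Cyp26a1, which encodes a retinoic acid hydroxylase, rose in wild type by 2.63 with TCPOBOP (SE 0.48, adjusted p = 0.00303) and by 2.63 with phenobarbital (adjusted p = 0.0101). Ccn4, a secreted WNT-induced protein gene, rose by 1.02 (adjusted p = 0.000308) and 0.83 (adjusted p = 0.00785), but only the 4 arrays of these groups exceeded the dim limit, so the sizes are uncertain. Peg3 and Tex10 were not called with either ligand, and Tex10 changed by 0.18 with TCPOBOP and 0.11 with phenobarbital. Mad1l1 (0.72) and Ginm1 (0.65) were called with TCPOBOP but not with phenobarbital (0.66 and 0.47).

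Over the same 12 means, the r with Gadd45b was 0.818 for Dusp6, 0.802 for Gadd45a, 0.743 for Myc and 0.615 for Mdm2. It was 0.286 for Cdkn1a, 0.201 for Trp53inp1, 0.148 for Ccnd1 and -0.217 for Gadd45g. Without the 2 arrays that stood apart it was 0.919 for Gadd45a and -0.602 for Gadd45g.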

How the data were processed

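RNA from 24 livers was measured on Affymetrix arrays. The deposited log2 values of 22690 probe sets came from RMA, run by the authors under R 2.15.0 per the submitters' processing notes, and were used as they stood. Per the labels' protocols, RNA was isolated with Trizol and labelled with biotin. The sources used here give no hybridisation dates or litters, and signal over background was not recorded, so the 2 arrays per group limit precision.

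The platform annotation gave the genes. Leaving out 64 control probe sets, it named 1 gene symbol for 20380, several for 691 and none for 1555 that it does not list. By gene ID 20351 of the 20380 were found in the RefSeq table of GRCm38.p6 and 0 symbols changed. Each of 12393 genes was read by its brightest probe set (mean of 24 arrays), and 9167 that exceeded the 40th percentile of 2 or more arrays entered the tests. The 12 group means (12 residual degrees of freedom) were fitted in limma 3.58.1 (R 4.3.3), and 22 comparisons were made, with Benjamini-Hochberg adjustment within each and calls at 0.05. Differences of effects are the first genotype minus the second. The test was tried on simulated data.

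The 9 genes, the pathway and cell marker lists and the arrays named as standing apart were chosen with earlier results of these data known. The 9 genes are given in every comparison whatever their p; genes of a list are named where called, up to 4 a list, and the 6 genes most like Gadd45b by Pearson correlation. Over 276 pairs of arrays at most 0.0485% of values were equal. Figures were drawn with Python 3.11.15 and matplotlib 3.10.9, and promoters came from the RefSeq table supplied. Alternatives were cyclic loess, quantile normalization, other dim filters, other uses of probe sets, a variance trend, a replicate block, array weights, a limit of 2-fold, fits on fewer arrays and leaving out each array.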

Additional observations from a re-analysis of the deposited data

Results flagged for a closer look

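The effect of TCPOBOP, its change against corn oil, differed between genotypes by the limma test of the difference for a pair of the genes. For Gadd45b the effect in knockout minus that in wild-type livers was -2.61 (SE 0.39, adjusted p = 0.00128), with changes of -0.30 in knockout and 2.31 in wild type. The effect in human CAR minus that in wild-type livers was -2.24 (SE 0.39, adjusted p = 0.00589), with a change of 0.06 in human CAR livers. For Dusp6 the effect in human CAR minus that in wild-type livers was -1.42 (SE 0.34, adjusted p = 0.0411), with changes of -0.35 in human CAR and 1.07 in wild type. The 2 differences against wild type share the wild-type mice, and the Gadd45b values were called in all alternatives and whichever array was left out, while the Dusp6 value was not.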

How the results depend on the processing

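Of 388 counts of the 9 genes under other settings, 347 were the same as reported and 41 moved by over 1.5 times. Of 592 changes of single genes, 545 kept their direction and side of the threshold, 21 lost a call, 22 gained one and 4 reversed. With 1 array left out, the remaining mouse is taken to spread as the other groups do, and where the cause of a change is not plain from the arrays left out it was not tested.

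Without the 2 arrays that stand apart, each of their groups has 1 mouse, so only sizes are given here. With TCPOBOP in wild type the changes of the 9 genes stayed as reported. Gadd45a, at 0.90, then exceeded the dim limit on 1 array and would fail the filter, which was not applied anew. The change of Ccnd1 with phenobarbital in knockout was -1.28. The phenobarbital effect on Gadd45b was -2.24 between knockout and wild type, -0.99 between human CAR and wild type and 1.25 between human CAR and knockout. On Dusp6 it was -1.84 between knockout and wild type. The CITCO effect on Gadd45b was 0.83 between human CAR and knockout. The phenobarbital effect between knockout and wild type had 1 call (Dusp6) under cyclic loess, quantile normalization, every probe set and a fit of only the genotypes compared, and 2 with array weights. Phenobarbital in human CAR livers had 0 with array weights and with only the genotypes compared. Phenobarbital in knockout had 0 under the mean of probe sets, every probe set, a variance trend and robust prior, weighted arrays and only the genotypes compared. With only the genotypes compared, phenobarbital in wild type had 4 (Gadd45b, Gadd45a, Myc and Dusp6) and TCPOBOP in wild type 5. Under the settings tried, up to 410 and 1065 genes of the array were called in these comparisons. Gadd45a entered this fit through the filter over all 24 arrays, and exceeded the dim limit on 1 wild-type phenobarbital array. TCPOBOP against phenobarbital in wild type had 1 (Dusp6) with array weights and with only the genotypes compared.

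Leaving out 1 array leaves 1 mouse in its group, so the counts of calls from these fits are not set out here. With phenobarbital in human CAR livers the changes ran from 1.17 to 2.05 for Gadd45b and from 0.38 to 4.00 for Gadd45a. Those of Gadd45g ran from -0.23 to 3.27 and those of Cdkn1a from 0.10 to 1.91. With phenobarbital in knockout livers Ccnd1 ran from -1.77 to -1.28 and Gadd45a from 0.38 to 2.77. The phenobarbital effect on Gadd45b ran from -2.24 to -1.06 between knockout and wild type and from 0.51 to 1.69 between human CAR and knockout. The TCPOBOP effect on Dusp6 between human CAR and wild type ran from -1.68 to -1.16, and its change with TCPOBOP in wild type from 0.81 to 1.33.

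Over all comparisons, leaving out the 2 arrays turned the sign of 11 of 198 changes, 4 of them with phenobarbital in knockout livers (Gadd45b, Gadd45g, Cdkn1a and Trp53inp1). Among the changes that were called or of at least 2-fold, which alone were followed through every setting, the reversed values were those of Gadd45g with phenobarbital in human CAR livers (-0.23 without replicate 1 or without both arrays, 3.27 without replicate 2, against 1.52) and of Cdkn1a for the phenobarbital effect between knockout and wild type (-0.000631 without knockout replicate 2 or both arrays, 2.11 without knockout replicate 1, against 1.05). Genes called over the array moved too: 563 became 148 to 1065 for TCPOBOP in wild type (265 to 315 with an array left out), 135 became 49 to 410 for phenobarbital in wild type (19 to 59), 67 became 2 to 148 in knockout (0 to 933) and 61 became 0 to 126 in human CAR livers (0 to 1311). For the TCPOBOP effect 179 became 117 to 409 between knockout and wild type (91 to 147) and 171 became 114 to 334 between human CAR and wild type (84 to 145). Scaling moved the median of all genes by at most 0.0626.

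The replicate numbers were not taken as pairs: over 66 pairs of groups the correlation of same-numbered deviations ran from -0.449 to 0.424, with a median of 0.0347. It was over 0.1 in 17 pairs of groups and under -0.1 in 11. Whether mice of some groups share a litter or day was not tested. With the replicate block, the counts of the 9 genes were as reported, 2 for TCPOBOP and 2 for phenobarbital in wild type, 1 for phenobarbital in human CAR and 1 in knockout livers, and 2 and 1 for the TCPOBOP effect between human CAR and wild type and between knockout and wild type.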
